A study of Rattus norvegicus with 30 samples.

Results

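The genes described here are the nuclear-encoded genes of the mitochondrial respiratory chain and of ATP synthase. Members were all genes whose symbol begins with Ndufa, Ndufb, Ndufc, Ndufs, Ndufv, Sdha, Sdhb, Sdhc, Sdhd, Uqcr, Cox4, Cox5, Cox6, Cox7, Cox8 or Atp5. The rule took 86 of the 17134 genes of the table, of which 43 belong to complex I, 7 to complex II, 7 to complex III, 15 to complex IV and 14 to complex V. By role these were 7 core subunits, 27 accessory subunits and 7 assembly factors of complex I, 4 subunits and 3 assembly factors of complex II, and 7 subunits of complex III. The others were 9 subunits and 5 tissue isoforms or relatives of complex IV, 13 subunits and 1 inhibitor of complex V, and 3 copies that the role lists did not hold (Ndufa10l1, Ndufv3-ps1 and Cox7a2l2). Reads of these copies can be shared with their parent genes, and Atp5mc1, Atp5mk, Ndufa10l1, Ndufb2, Ndufs5, Sdhaf1 and Uqcrb each merge 2 Ensembl identifiers, so their values are uncertain. Of the 99 genes of the role lists, 83 had values. Ndufa10, Ndufb1, Ndufb9, Ndufaf8, Sdhaf4, Uqcr11, Cox7a2, Cox8a, Cox6b2, Cox7b2, Cox8b, Cox8c, Atp5f1c, Atp5f1e, Atp5me and Atp5mj were not analysed here.

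The respiratory chain passes electrons from NADH and succinate through complexes I to IV to oxygen and pumps protons across the inner mitochondrial membrane, and complex V (ATP synthase) uses that gradient to make ATP. Most subunits are encoded in the nucleus and imported, while a small set of subunits of complexes I, III, IV and V is encoded by mitochondrial DNA. Complex II is wholly nuclear-encoded and also works in the citrate cycle. Neurons depend on this pathway for most of the ATP that ion pumping and synaptic transmission consume.

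The study asked how amyloid-forming human amylin, a peptide hormone made in the pancreas, affects the brain, and RNA was sequenced from the brains of 30 male rats on a normal diet. There were 10 wild-type (WT) rats, 10 HIP rats and 10 AKO rats. HIP rats express human amylin in the β-cells of the pancreas and develop type-2 diabetes, so transgene and diabetes came together in this group. In AKO rats the gene for rat amylin was knocked out. WT and HIP rats were 15 to 16 months old, and no age was given for the sequenced AKO rats. The targeted gene, Iapp, was not analysed here, so the AKO labels were not checked by it.

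Values were normalized counts, which are read counts divided by a scaling factor for each rat. The normalized counts of a rat, in units of 10 to the power 6, summed to between 15.45 and 17.98. The reads behind them, estimated in the same units from the steps between low values, ranged from 12.9 to 21.1 in WT rats (median 19.1), from 13.7 to 16.7 in HIP rats (median 15.7) and from 12.9 to 23.6 in AKO rats (median 16.1). All 86 members passed the filter on low values in all 3 comparisons. Fold changes below are differences in mean log2(normalized count + 1), tested with limma, and a difference in this bulk tissue cannot tell fewer cells of a type from less RNA per cell. Transcript lengths were not used, so levels of different genes are not comparable as amounts, and they were ranked only to choose some of the genes named.

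The labelled tissue was frontal cortex, while the paper names hippocampus in its results and cerebral cortex in its methods, so which region was taken is uncertain. The mean of 6 hippocampal genes had medians of 6.64 in WT, 6.71 in HIP and 6.76 in AKO rats. The mean log2 level of 9 marker genes of neocortical layers (among them Tbr1, Cux2 and Rorb, transcription factors of cortical neurons) had a median of 9.95 in WT rats, 9.95 in HIP rats and 9.73 in AKO rats. It was 5.58 in WT replicate 3, and between 9.39 and 10.17 in all other rats. In the same WT rat the mean of 11 cerebellar genes was 12.44 against a WT median of 4.55, so this library carried cerebellar and few neocortical transcripts. Cerebellar genes also reached 9.45 in HIP replicate 10 (HIP median 4.45). Genes of the pineal gland (9.49) and the choroid plexus (8.63) were high in HIP replicate 4, where the HIP medians were 1.89 and 2.94. Choroid plexus genes reached 6.57 in AKO replicate 7 (AKO median 3.11). The mean of 6 olfactory bulb genes spread more widely, from 3.82 to 9.61 in WT rats (median 4.26), from 3.68 to 8.64 in HIP rats (median 4.74) and from 3.83 to 9.40 in AKO rats (median 5.32). The part of such tissue differences in the results below was tested only by leaving out 4 rats and by fits with tissue lists as covariates. The rats left out were WT replicate 3, HIP replicates 4 and 10 and AKO replicate 7, called the 4 rats with other tissue below. Other rats with high olfactory bulb genes were kept, so leaving out these 4 does not remove that tissue. Among the rats kept were WT replicates 7 and 8 (4.66 and 4.87 above the median of the 30 rats), HIP replicate 8 (3.89) and AKO replicate 3 (4.65).

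AKO replicate 5 stood apart in the members themselves. This rat had the highest value of all 30 rats in 80 of the 86 members (93.0%), against 17.2% of all 17103 genes with any value. By complex it was highest in 38 of 43 members of complex I, 6 of 7 of complex II, 7 of 7 of complex III, 15 of 15 of complex IV and 14 of 14 of complex V. The exceptions included the assembly factors Ndufaf1, Ndufaf4 and Ndufaf7, the core subunit Ndufs1, and Sdha, the flavoprotein of complex II, in which this rat was the lowest of the 30. Its mean log2 level over all members was 10.71, while the other AKO rats lay between 9.78 and 10.17. The same rat was highest in 66 of 81 cytosolic ribosomal protein genes (81.5%). It was highest in 0 of the 13 mitochondrially encoded genes, whose mean was 12.41 in this rat, the lowest of the AKO group. Because of this library, most AKO estimates below are given with and without AKO replicate 5. This rat was singled out by the members' own values. Members' estimates, counts and p-values without it therefore describe the remaining rats and are no separate evidence.

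**Figure D1:**
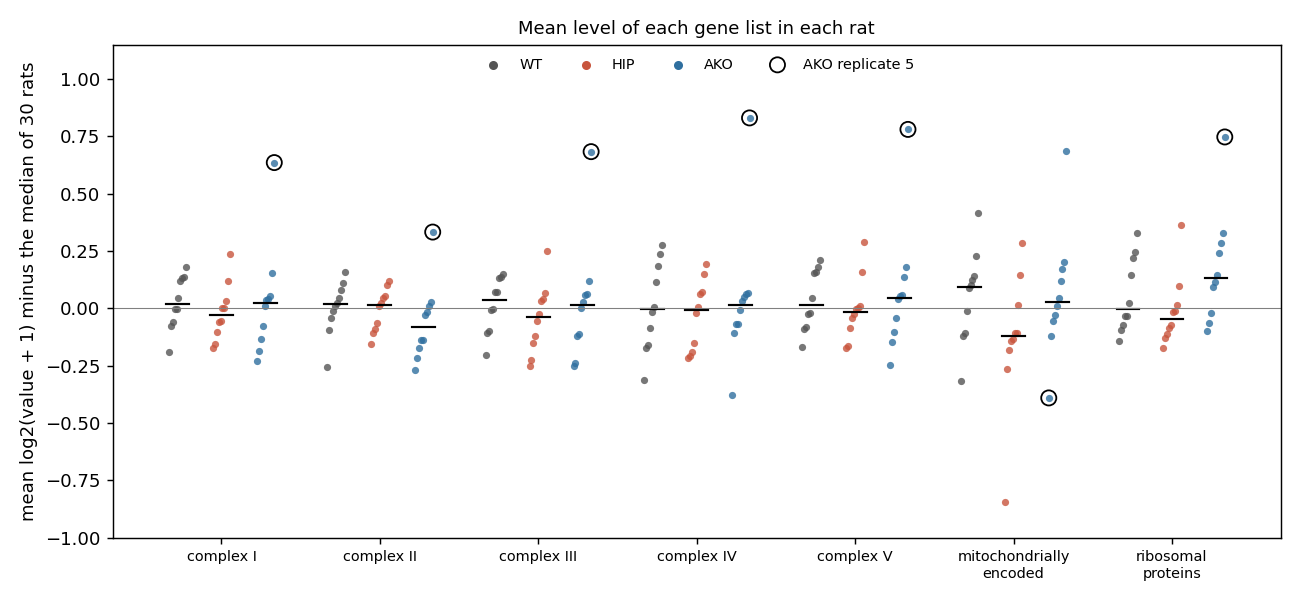
Mean log2(normalized count + 1) of each gene list in each rat, as the difference from the median of the 30 rats, with 1 point for each rat and a bar at each group's median. AKO replicate 5 (circled) is the highest rat for complexes I to V and ribosomal proteins and the lowest AKO rat for the 13 mitochondrially encoded genes.

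Apart from AKO replicate 5, the groups overlapped in every complex. The mean of complex I had a lowest, median and highest value of 9.57, 9.78 and 9.93 in WT rats, 9.58, 9.73 and 9.99 in HIP rats and 9.53, 9.78 and 10.39 in AKO rats. The mean of complex II was 10.05, 10.32 and 10.46 in WT rats, 10.15, 10.32 and 10.42 in HIP rats and 10.03, 10.22 and 10.64 in AKO rats. Complexes were low or high together within a rat: WT replicate 7 was the lowest WT rat and AKO replicate 3 the lowest AKO rat in all 5 complexes, and HIP replicate 4 was the highest HIP rat in all 5. The olfactory bulb genes were high in WT replicate 7 and AKO replicate 3, 4.66 and 4.65 above the median of the 30 rats, and HIP replicate 4 was the rat with pineal and choroid plexus transcripts. Olfactory bulb genes were higher still in WT replicate 8 (4.87), which was the lowest WT rat in no complex. Its mean over all members differed from that median by −0.089, against −0.21 in WT replicate 7. The part of those tissues in the members' levels was not tested beyond the alternatives given.

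Upstream sequence was taken from the RefSeq promoter table (build GRCr8), which holds 300 bases for each gene, 250 before and 50 after the start. All 86 members were found in the RefSeq gene table by symbol, and 76 of them had such a window. The windows were searched on both strands for the letters GCGCANGCG (a motif bound by NRF1), CCGGAAG (bound by GABP) and AAGATGG (bound by YY1), factors known for the control of nuclear genes of mitochondria. The NRF1 letters were in 25% of members' windows, 11.8% of those of all 11299 genes of the table with a window and 6.26% of all 27456 windows. The GABP letters were in 28.9%, 15.7% and 9.22%, and the YY1 letters in 22.4%, 7.87% and 7.30%, respectively. At least 1 of the motifs was in 63.2% of members' windows, 30.1% of those of genes of the table and 20.1% of all. All 7 windows of complex II held at least 1, with GABP letters in 5. The 4 windows printed here belong to Ndufs7 (chr7:10110449-10110748, minus strand), Ndufaf1 (chr3:127103971-127104270, minus strand), Ndufa3 (chr1:74515509-74515808, minus strand) and Sdha (chr1:30764303-30764602, plus strand), members with small p-values in the comparisons below. Capitals mark the motif letters: 1 YY1 match in Ndufs7, 2 GABP matches in Ndufaf1, 1 YY1 match in Ndufa3 and 3 NRF1 matches in Sdha. A match describes the letters only.
Ndufs7: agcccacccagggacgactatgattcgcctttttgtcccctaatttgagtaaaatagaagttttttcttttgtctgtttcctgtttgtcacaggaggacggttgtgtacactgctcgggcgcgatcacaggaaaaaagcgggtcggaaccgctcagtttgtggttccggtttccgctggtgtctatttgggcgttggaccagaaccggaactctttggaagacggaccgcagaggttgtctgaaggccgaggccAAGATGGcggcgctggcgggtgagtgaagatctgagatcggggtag
Ndufaf1: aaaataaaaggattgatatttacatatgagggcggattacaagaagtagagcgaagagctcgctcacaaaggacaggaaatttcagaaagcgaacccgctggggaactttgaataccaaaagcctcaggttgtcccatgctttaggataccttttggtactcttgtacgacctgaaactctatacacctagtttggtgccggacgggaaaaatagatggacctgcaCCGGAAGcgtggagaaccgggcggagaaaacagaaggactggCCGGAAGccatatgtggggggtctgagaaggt
Ndufa3: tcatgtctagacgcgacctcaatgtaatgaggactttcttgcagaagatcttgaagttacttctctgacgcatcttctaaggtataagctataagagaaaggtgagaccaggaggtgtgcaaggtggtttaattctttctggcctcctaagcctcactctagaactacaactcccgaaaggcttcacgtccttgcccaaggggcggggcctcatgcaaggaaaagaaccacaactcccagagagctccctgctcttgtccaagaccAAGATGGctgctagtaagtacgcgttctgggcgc
Sdha: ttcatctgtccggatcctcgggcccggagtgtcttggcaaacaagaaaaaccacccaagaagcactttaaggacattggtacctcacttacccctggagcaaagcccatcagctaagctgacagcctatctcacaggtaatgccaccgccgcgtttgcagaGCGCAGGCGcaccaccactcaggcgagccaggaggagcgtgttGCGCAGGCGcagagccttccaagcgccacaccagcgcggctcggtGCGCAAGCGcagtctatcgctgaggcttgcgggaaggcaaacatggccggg

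The first comparison asked whether brains exposed to human amylin and diabetes differed from wild type. In HIP rats, members lay slightly below WT: the median log2 fold change was −0.052, with 19 of 86 above 0, against a median of 0.0018 over all 17085 genes tested. This direction depended on the fit: with estimated reads as a covariate and WT replicate 3 left out, the median was 0.029, with 56 of 86 above 0. Without that rat, estimated reads were at least 16.3 in WT rats (replicate 7) and at most 16.7 in HIP rats (replicate 6). That fit, also used below, can therefore hardly separate depth from group. All 8 striatum genes were below 0 in HIP against WT rats (median −0.39, none at p under 0.05), and their mean ranged from 7.89 to 10.90 in WT rats, highest in replicate 9, which was also the highest WT rat in the members. With the striatum list as a covariate the members' median was −0.034, with 26 above 0, and their part was not tested further. By complex the medians were −0.056 (complex I), −0.035 (complex II), −0.049 (complex III), −0.066 (complex IV) and −0.031 (complex V). At an unadjusted p under 0.05, 1 member was higher and 1 lower in HIP rats (2.33% of members), where 2.57% of all genes tested passed, 1.11% higher and 1.46% lower. That share is near the background. With limma and Benjamini-Hochberg adjustment over all genes tested, 0 members passed an adjusted p of 0.05, and 0% of all genes did.

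The lower member was Ndufs7, a core subunit that carries an iron-sulfur cluster of complex I (ENSRNOG00000024568). Its lowest, median and highest normalized counts were 1457, 1582 and 1712 in WT rats and 1295, 1425 and 1780 in HIP rats. HIP replicates 1, 2, 6, 8 and 10, and also replicate 5, were below every WT rat, while HIP replicate 4 was above every WT rat. The log2 fold change was −0.14 (SE 0.056, p = 0.0186), and −0.15 (p = 0.00524) without the 4 rats with other tissue. The call was lost with all 30 rats in 1 fit (p = 0.0832), with estimated reads as a covariate (−0.14, p = 0.0663), and with that covariate and WT replicate 3 left out (−0.048, p = 0.623). The higher member was Ndufa5, an accessory subunit of the peripheral arm (ENSRNOG00000071062), with 1386, 1615 and 1793 in WT rats and 1569, 1700 and 1844 in HIP rats. The groups overlapped broadly, and WT replicates 3 and 10 were lowest. Its log2 fold change was 0.10 (SE 0.046, p = 0.0388). It missed the threshold without any 1 of WT replicates 1, 3, 8 and 10 and HIP replicates 1, 2 and 3, with estimates between 0.080 without WT replicate 3 and 0.10 without WT replicate 1. The call was also lost with all 30 rats in 1 fit (p = 0.053) and with weights for library quality (0.068, p = 0.0966). With library number as a covariate the estimate was 0.078 (p = 0.0975). With estimated reads as a covariate and WT replicate 3 left out, it was 0.0030 (p = 0.966). The adjusted p was 0.999 for both genes in limma with Benjamini-Hochberg adjustment.

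The next smallest p-values belonged to Ndufb6, Sdhc and Ndufa13. Ndufb6, an accessory subunit of the membrane arm, had a log2 fold change of −0.17 (95% interval −0.34 to 0.0023, p = 0.0528). Sdhc, a membrane anchor of complex II, had −0.12 (−0.25 to 0.0037, p = 0.0564), and Ndufa13, an accessory subunit that is also known as a cell death regulator, −0.14 (−0.29 to 0.0077, p = 0.062). These intervals reached 0. The count of members at p under 0.05 moved with single rats. It was 13 without HIP replicate 4 (12 of them lower; 4.58% of all genes passed), 8 without WT replicate 7 (2.36% of all genes) and 4 without HIP replicate 9 (2.65%). It was 1 without WT replicate 3 (2.63%), WT replicate 10 (2.72%) or HIP replicate 1 (1.81%). Without the 4 rats with other tissue it was 5, of which 4 were lower in HIP rats, at 3.78% of all genes tested.

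The comparison of knockout with wild type asked what absence of the rat's own amylin goes with. In AKO rats the median log2 fold change of the members was 0.010, with 50 of 86 above 0, and the median over all 17058 genes was 0.0014. By complex the medians were 0.0095 (complex I), −0.065 (complex II), 0.0075 (complex III), 0.023 (complex IV) and 0.041 (complex V). At p under 0.05, 3 members were lower and 0 higher (3.49% of members), against 9.34% of all genes, 5.23% higher and 4.12% lower. In limma with Benjamini-Hochberg adjustment 0 members passed, against 0.0997% of all genes. These shares were not compared by a test, and without AKO replicate 5 they were 9.30% of members and 9.01% of all genes at p under 0.05.

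Leaving out AKO replicate 5 turned the direction. The rat was chosen for its high values in the members, so a shift down of most members was fixed in advance. The median became −0.066, with 20 of 86 above 0, and the medians of complexes I to V became −0.067, −0.12, −0.079, −0.054 and −0.047, all below 0. The count at p under 0.05 became 8, all lower (5 of complex I, 2 of complex II and 1 of complex V), or 9.30% of members at 9.01% of all genes. It was 1 without any 1 of WT replicates 1, 5, 6 and 9 and AKO replicates 8 and 10, with 7.68% to 9.49% of all genes. The members' median was also below 0 without WT replicate 5 (−0.0031), WT replicate 7 (−0.014), WT replicate 8 (−0.0043) or AKO replicate 8 (−0.0051). Fits with other settings turned it too: −0.021 with weights for library quality (37 above 0), −0.014 with estimated reads as a covariate, and −0.015 with that covariate and WT replicate 3 left out. Rats are named in 2 ways in the AKO group: the median was −0.042 (28 above 0) with only rats named AKO, and 0.088 (65 above 0) with only rats named KAH, which include replicate 5. Without the 4 rats with other tissue, 2 members were lower, with a median of 0.030, where 9.15% of all genes passed. Without those 4 and AKO replicate 5, 4 were lower, with a median of −0.064, at 9.07% of all genes.

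**Figure D2:**
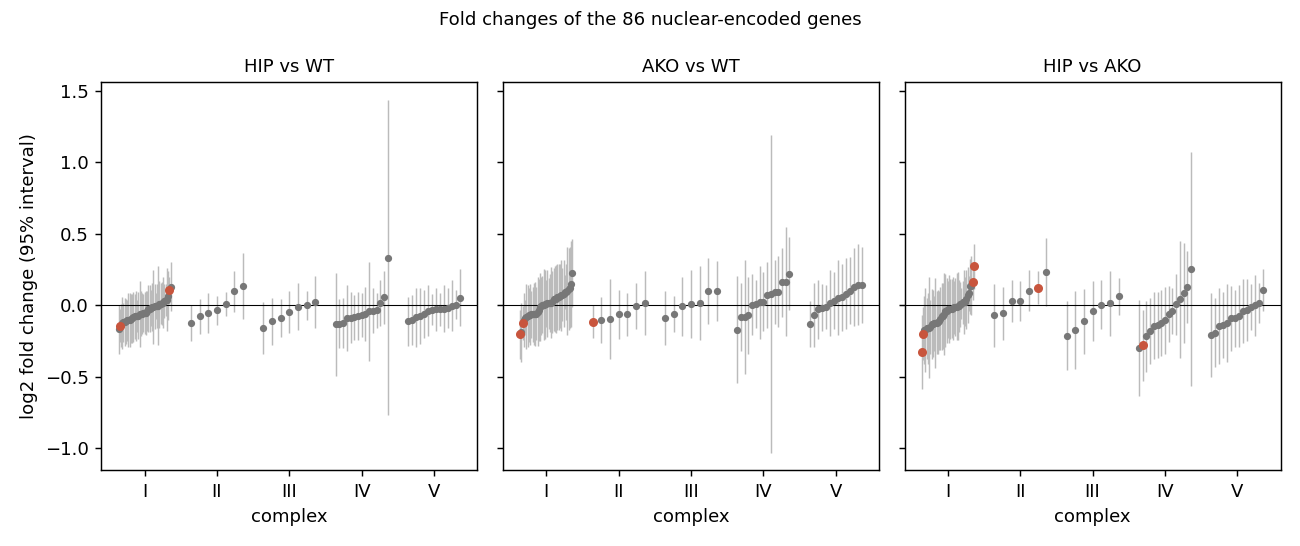
Log2 fold change of each of the 86 members in each comparison, grouped by complex, with 1 point for each member. Points are spread on both sides of 0, and all estimates lie within 1.5-fold.

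The 3 lower members were Ndufaf1, Ndufs1 and Sdha, which are among the 6 members in which AKO replicate 5 was not highest. Markers of cell types differed in the same comparison: of 10 microglia genes 6 were higher at p under 0.05 (median 0.29), and of 10 neuron genes 8 were below 0 and 2 were lower (median −0.13), or a median of 0.29 and −0.096 without AKO replicate 5. In HIP against AKO rats 6 microglia genes were lower and 1 higher (median −0.26), and 9 of 10 neuron genes were above 0 (median 0.15), with medians of −0.26 and 0.16 without that rat. Of 6 blood genes, 6 were above 0 in AKO against WT rats (median 0.54; 1 higher) and 0 in HIP against AKO rats (median −0.65; 2 lower). Of 9 astrocyte and 6 endothelial genes, 2 each were lower in HIP against AKO rats. Of all genes, 9.34% had p under 0.05 in AKO against WT rats and 12.7% in HIP against AKO rats. The part of these cell types in the members' estimates was not tested. Ndufaf1, an assembly factor that helps build the membrane arm of complex I (ENSRNOG00000005006), had lowest, median and highest counts of 157.004, 205.3 and 231.4 in WT rats, 188.1, 204.3 and 258.3 in HIP rats and 159.4, 171.8 and 196.2 in AKO rats. No AKO rat exceeded the HIP median, WT replicate 7 was below every AKO rat, and WT replicates 2 and 3 lay within the AKO range. The log2 fold change in AKO rats against WT rats was −0.20 (SE 0.082, p = 0.0204, adjusted p = 0.437 in limma with Benjamini-Hochberg adjustment). It was −0.20 (p = 0.0266) without AKO replicate 5 and −0.25 (p = 0.00774) without the 4 rats with other tissue. The call was lost with estimated reads as a covariate (−0.16, p = 0.056) and with only the rats named AKO (−0.16, p = 0.1).

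Ndufs1 (ENSRNOG00000011849) is the largest core subunit and lies in the part of complex I that takes electrons from NADH. Its lowest, median and highest counts were 2824, 3185 and 3430 in WT rats and 2793, 3238 and 3713 in HIP rats. In AKO rats they were 2585, 2865 and 3340. AKO replicates 1, 2, 3, 8 and 10 were the lowest AKO rats, and the groups overlapped. The log2 fold change against WT was −0.13 (SE 0.057, p = 0.04), and −0.14 (p = 0.0229) without AKO replicate 5. It missed the threshold without any 1 of WT replicates 1, 3, 4, 5, 6 and 9 or AKO replicates 1, 2, 3, 8 and 10, with estimates between −0.13 without WT replicate 9 and −0.11 without AKO replicate 1. The call was also lost with estimated reads as a covariate (−0.11, p = 0.074), and with that covariate and WT replicate 3 left out (−0.090, p = 0.173). With only the rats named AKO the estimate was −0.10 (p = 0.111), and with only those named KAH −0.16 (p = 0.0728).

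**Figure D3:**
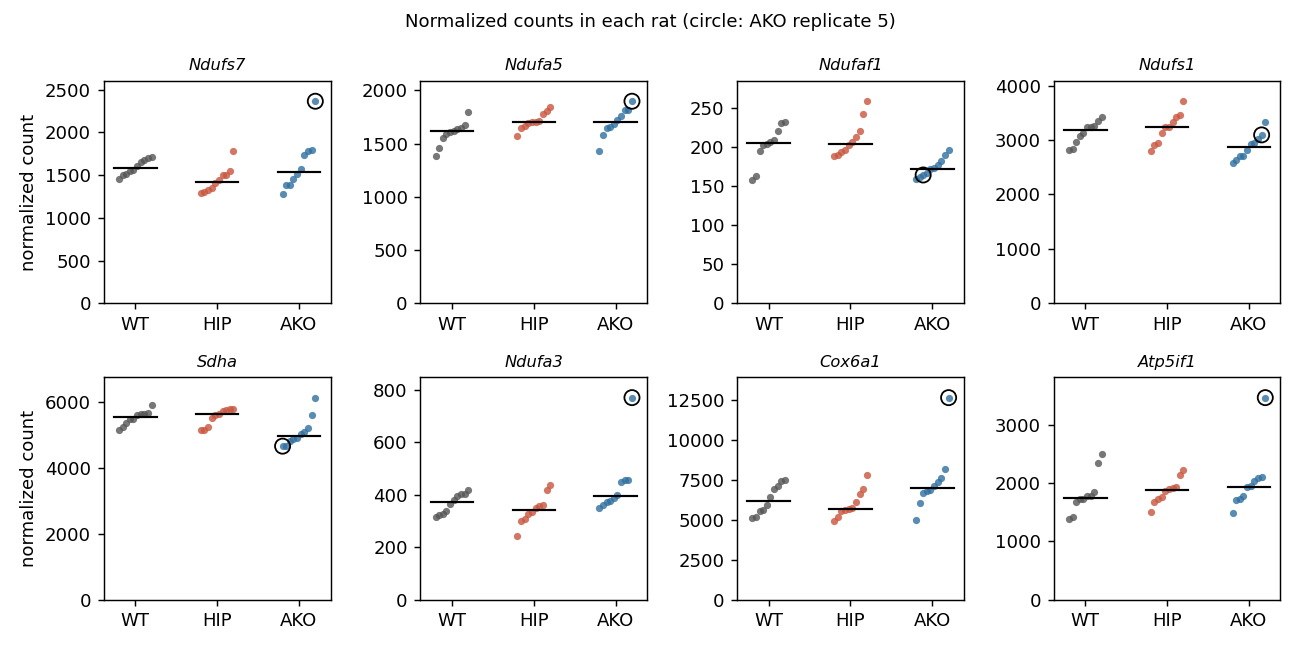
Normalized counts of 8 members in each rat, with 1 point for each rat and a bar at the group median; vertical axes start at 0. AKO replicate 5 (circled) is the highest AKO rat for Ndufs7, Ndufa5, Ndufa3, Cox6a1 and Atp5if1, but not for Ndufaf1, Ndufs1 or Sdha.

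Complex II is described in full because all of its subunits are nuclear. Sdha, the catalytic flavoprotein that oxidizes succinate (ENSRNOG00000013331), had counts of 5141, 5552 and 5914 in WT rats, 5152, 5627 and 5804 in HIP rats and 4664, 4979 and 6138 in AKO rats. Of the AKO rats, replicates 2, 3, 5, 6, 7, 8 and 10 were below every WT and HIP rat, while replicate 1 was above all of them. The log2 fold change was −0.12 against WT (SE 0.055, p = 0.0459), and 0.12 in HIP against AKO rats (SE 0.055, p = 0.0345). Both calls depended on single rats, and both were lost without the 4 rats with other tissue (−0.12, p = 0.0512, and 0.13, p = 0.0528). Against WT the p was 0.0662 (estimate −0.10) without AKO replicate 5, and the call was also lost without any 1 of WT replicates 1, 2, 4, 5, 6, 9 and 10 or AKO replicates 2, 3, 4, 6, 7, 8 and 10, with estimates from −0.12 without AKO replicate 4 to −0.10 without AKO replicate 6. In HIP against AKO rats the p was 0.0522 (0.11) without AKO replicate 5, and the call was lost without HIP replicates 2, 3, 7 or 9 or AKO replicates 2, 3, 6 or 10 as well, with estimates from 0.11 without AKO replicate 6 to 0.12 without AKO replicate 10.

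The other subunits of complex II passed no test with all rats. Sdhb, the iron-sulfur subunit, had medians of 2101 in WT, 2043 in HIP and 1971 in AKO rats, and an AKO against WT estimate of −0.064 (p = 0.379), which was −0.12 (p = 0.0375) without AKO replicate 5. Sdhd, a membrane anchor, had medians of 1972, 1919 and 1846, with −0.11 (p = 0.183), and −0.15 (p = 0.0468) without that rat. For Sdhc the medians were 1879, 1727 and 1729, with −0.065 (p = 0.437), and −0.13 (p = 0.0502) without it. These estimates all lay below 0, with or without AKO replicate 5, while their intervals with all rats included 0. Among the assembly factors, Sdhaf3 had medians of 145.04 in WT, 156.05 in HIP and 125.1 in AKO rats and a HIP against AKO estimate of 0.23 (p = 0.0539), or 0.29 (p = 0.0147) without AKO replicate 5. Sdhaf2, which attaches flavin to Sdha, had a HIP against AKO estimate of 0.10 (p = 0.164), or 0.14 (p = 0.0399) without that rat. Sdhaf1, which guides iron-sulfur insertion, had −0.073 (p = 0.496), or 0.0072 (p = 0.928) without that rat. Its value merges 2 Ensembl identifiers and is uncertain.

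HIP and AKO rats were compared with each other because the first carry human amylin and the second lack amylin of the rat. This comparison shares its rats with the other 2, so its values stand beside theirs and are no separate evidence. The median log2 fold change of the members, HIP against AKO, was −0.040, with 27 of 86 above 0, and 0.0047 over all 17092 genes. By complex the medians were −0.029 (complex I), 0.029 (complex II), −0.041 (complex III), −0.10 (complex IV) and −0.084 (complex V). At p under 0.05, 3 members were higher and 3 lower in HIP rats (6.98%), against 12.7% of all genes, 5.85% higher and 6.9% lower. With limma and Benjamini-Hochberg adjustment 0 members passed, against 0.17% of all genes.

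Without AKO replicate 5 the median became 0.032, with 52 of 86 above 0, and 7 members were higher and 2 lower (10.5%, at 11.6% of all genes). The medians of complexes I to V were then 0.050, 0.081, 0.026, −0.0055 and 0.0091. The count with all rats was 6; it was 11 without AKO replicate 3 (14.5% of all genes passed) and 10 without HIP replicate 4 (17.6%). Without the 4 rats with other tissue, 2 members were higher and 3 lower, with a median of −0.062, at 13.7% of all genes. Without those 4 and AKO replicate 5, 6 were higher and 1 lower, with a median of 0.025, at 12.8% of all genes.

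**Figure D4:**
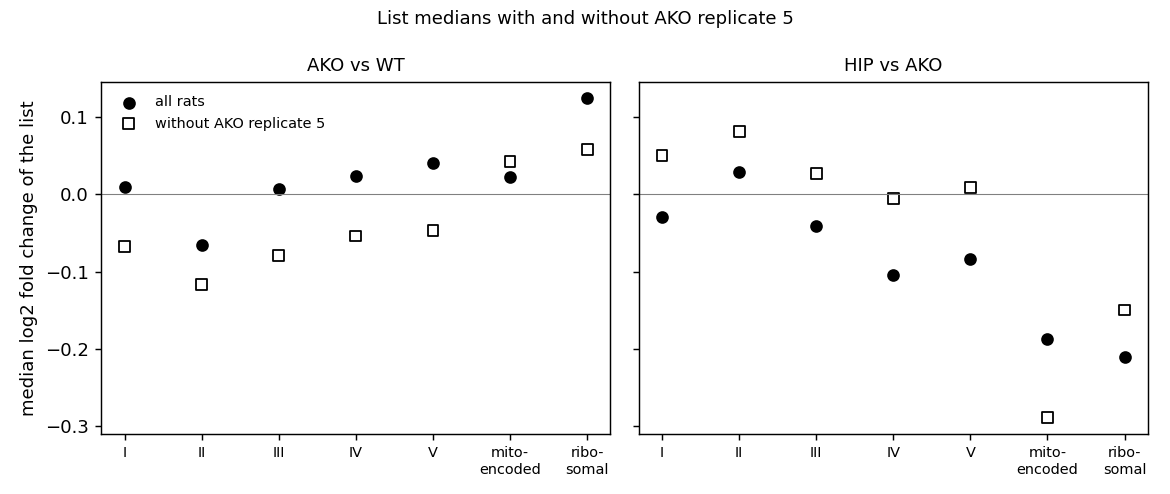
Median log2 fold change of the members of each complex and of the mitochondrially encoded and ribosomal protein genes. Panels show AKO against WT and HIP against AKO rats, with all rats and without AKO replicate 5. In AKO against WT rats the medians of complexes I, III, IV and V are above 0 with all rats and below 0 without AKO replicate 5.

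The 3 members higher in HIP than in AKO rats were Ndufaf1, Ndufs1 and Sdha. Ndufaf1 had the smallest p of any member in any comparison, with a log2 fold change of 0.27 (SE 0.076, 95% interval 0.11 to 0.43, p = 0.00165). Its adjusted p was 0.153 in limma with Benjamini-Hochberg adjustment. Without AKO replicate 5 the estimate was 0.26 (p = 0.00225), and without the 4 rats with other tissue 0.32 (p = 0.00133). Ndufs1 had an estimate of 0.16 (SE 0.061, p = 0.0148), and 0.17 (p = 0.00901) without AKO replicate 5. Both kept p under 0.05 when any 1 rat was left out.

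The 3 members lower in HIP than in AKO rats were Ndufa3, Cox6a1 and Ndufa1, the last of which was named after its value was seen. Ndufa3, an accessory subunit of the membrane arm (ENSRNOG00000060293), had counts of 316, 371 and 419 in WT rats, 244, 343 and 438 in HIP rats and 349, 395 and 770 in AKO rats. AKO replicate 5 lay far above the rest, HIP replicate 8 was the lowest rat, and HIP replicates 1, 4, 6, 7 and 9 were within the range of the other AKO rats. The log2 fold change was −0.33 (SE 0.13, p = 0.0155), and −0.23 (p = 0.0217) without AKO replicate 5. Cox6a1, the subunit of cytochrome c oxidase found in most tissues in place of the muscle form (ENSRNOG00000001170), had counts of 5097, 6174 and 7476 in WT rats, 4914, 5698 and 7792 in HIP rats and 4984, 6963 and 12638 in AKO rats. AKO replicate 3 was nearly as low as the lowest HIP rats, and AKO replicate 5 was highest by a wide margin. The estimate was −0.28 (SE 0.12, p = 0.0272), and −0.19 (p = 0.0463) without AKO replicate 5; without HIP replicate 8 it missed the threshold at −0.25 (p = 0.0521). It also missed it without the 4 rats with other tissue and AKO replicate 5 (−0.19, p = 0.0671) and with the striatum list as a covariate (p = 0.0543). Ndufa1, an accessory subunit encoded on the X chromosome, had an estimate of −0.20 (SE 0.090, p = 0.0376), and lost the call without AKO replicate 5 (−0.13, p = 0.0663). It also lost the call without any 1 of HIP replicates 1, 2, 5, 8 and 10 and AKO replicates 4 and 8, with estimates from −0.20 without HIP replicate 5 to −0.17 without HIP replicate 10, with the striatum list as a covariate (p = 0.052), and without the 4 rats with other tissue and AKO replicate 5 (−0.14, p = 0.0632). Ndufa3 kept its call in all of these fits.

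How large a difference these data allow is shown by the intervals. The 95% interval of the log2 fold change lay within 1.5-fold (0.585 on the log2 scale) in 85 of 86 members in HIP against WT rats, 85 of 86 in AKO against WT rats and 83 of 86 in HIP against AKO rats. The exceptions were Cox6a2 in all 3 comparisons, and Ndufa3 and Cox7a2l2 in HIP against AKO rats. The median SE was 0.079, 0.11 and 0.11 in the 3 comparisons. The estimates ranged from −0.17 (Ndufb6) to 0.33 (Cox6a2) in HIP against WT rats, from −0.20 (Ndufaf1) to 0.23 (Ndufa3) in AKO against WT rats and from −0.33 (Ndufa3) to 0.27 (Ndufaf1) in HIP against AKO rats. In 1 alternative, limma with weights for the quality of each library, members did pass an adjusted p of 0.05: 2 in AKO against WT rats (2.33%, against 5.02% of all genes) and 3 in HIP against AKO rats (3.49%, against 6.69%). In those fits 23% and 25.1% of all genes had p under 0.05, against 10 members (11.6%) and 19 members (22.1%). A p that missed the threshold does not show that the groups had equal levels.

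With all rats and no covariate, no member of complexes III and V had p under 0.05 in limma. Uqcrc1 and Uqcrc2, the core proteins of complex III, had AKO against WT estimates of −0.0075 (p = 0.94) and −0.063 (p = 0.317), or −0.075 (p = 0.353) and −0.096 (p = 0.0855) without AKO replicate 5. Without that rat the smallest p of any member against WT was that of Atp5pb, a stalk subunit of ATP synthase that was named after its value was seen. Its AKO against WT estimate was −0.13 (p = 0.0995), and −0.18 (p = 0.00942) without AKO replicate 5; in HIP against AKO rats it was 0.10 (p = 0.157), and 0.15 (p = 0.0125) without that rat. Atp5f1a and Atp5f1b, the subunits that form the catalytic head of ATP synthase, had AKO against WT estimates of −0.012 (p = 0.875) and −0.018 (p = 0.822), or −0.051 (p = 0.443) and −0.066 (p = 0.344) without AKO replicate 5. Atp5if1, which blocks ATP hydrolysis by the synthase (ENSRNOG00000013300), had counts of 1386, 1751 and 2491 in WT rats, 1506, 1880 and 2219 in HIP rats and 1490, 1938 and 3464 in AKO rats. WT replicates 9 and 10 and AKO replicate 5 were high, and the groups overlapped. Its AKO against WT estimate was 0.14 (p = 0.273), and 0.054 (p = 0.601) without AKO replicate 5.

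The scaling of a rat largely cancels in a ratio of 2 of its members, but not fully for low counts such as those of Cox6a2, because 1 was added. Isoform pairs were compared as log2 ratios, by 15 permutation tests (two-sided, 5 pairs in 3 comparisons) with Benjamini-Hochberg adjustment over all 15. Of these tests 0 had an adjusted p under 0.05, and 2 had an unadjusted p under 0.05. Both concerned Atp5mc1 over Atp5mc3, genes for the same c subunit of the proton-driven ring of ATP synthase. The log2 ratio had a lowest, median and highest value of −1.68, −1.42 and −1.19 in WT rats, −1.79, −1.45 and −1.30 in HIP rats and −1.54, −1.29 and −1.03 in AKO rats. It was −0.21 in HIP against AKO rats (p = 0.0096, adjusted p = 0.144) and 0.16 in AKO against WT rats (p = 0.0378, adjusted p = 0.284). The groups overlapped, and AKO replicate 5 had the highest ratio. Without that rat the differences were −0.18 (exact permutation p = 0.0201, adjusted p = 0.301) and 0.13 (exact permutation p = 0.0745, adjusted p = 0.559). The row of Atp5mc1 merges 2 Ensembl identifiers, and reads can be shared among the Atp5mc genes, so this ratio is uncertain.

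The other pairs did not pass. Cox6a2, the heart and muscle form of the Cox6a subunit, had lowest, median and highest counts of 3.59, 58.0 and 125 in WT rats, 17.4, 54.5 and 118 in HIP rats and 16.5, 43.4 and 142.1 in AKO rats. The lowest value was that of WT replicate 3, the rat with cerebellar transcripts, and without this rat the HIP against WT estimate of 0.33 became −0.027. The log2 ratio of Cox6a2 to Cox6a1 differed by 0.39 in HIP against WT rats (p = 0.476, adjusted p = 0.595). WT replicate 3 had the lowest ratio, −10.14, and the medians ran the other way, −6.63 in WT and −6.87 in HIP rats. In HIP against AKO rats the difference was 0.53 (permutation p = 0.177), or 0.63 without AKO replicate 5 (permutation p = 0.124). For Cox4i2, a form linked to low oxygen, over Cox4i1, the difference was 0.023 in HIP against WT rats (p = 0.89) and −0.15 in AKO against WT rats (p = 0.422), or −0.17 without AKO replicate 5 (p = 0.408). For Ndufa4l2, another low-oxygen form, over Ndufa4, it was −0.0033 (p = 0.983) and −0.19 (p = 0.345), or −0.16 without that rat (p = 0.441). For the inhibitor Atp5if1 over the catalytic subunit Atp5f1b it was 0.083 (p = 0.384) and 0.16 (p = 0.138), or 0.12 without it (p = 0.25).

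Of the mitochondrially encoded partners of these complexes, all 13 had estimates below 0 in HIP against WT rats (median −0.16; 0 at p under 0.05 in limma, adjusted or not) and in HIP against AKO rats (median −0.19; 5 at p under 0.05, or 38.5% against 12.7% of all genes, 0 adjusted), and 7 were above 0 in AKO against WT rats (median 0.023, or 0.043 without AKO replicate 5; 1 at p under 0.05, 0 adjusted). Mt-cyb, the cytochrome b of complex III, had the smallest p, with counts of 7633, 10763 and 13647 in WT rats, 7197, 9618 and 11578 in HIP rats and 10260, 11369 and 15425 in AKO rats. Its HIP against AKO log2 fold change was −0.31 (SE 0.086, p = 0.0014, adjusted p = 0.149 in limma with Benjamini-Hochberg adjustment), and −0.33 (p = 0.00109) without AKO replicate 5. HIP replicate 1 was the lowest of 30 rats in 10 of the 13 genes and AKO replicate 2 the highest in 13 of 13. Single rats turned some of these estimates. In HIP against WT rats Mt-atp8 became 0.0047 without HIP replicate 1. In HIP against AKO rats Mt-atp8 (0.10) and Mt-nd4l (0.033) turned without HIP replicate 1, and Mt-nd5 (0.018) and Mt-nd6 (0.033) without AKO replicate 2. Without AKO replicate 5 the HIP against AKO median was −0.29, with 5 of 13 at p under 0.05 against 11.6% of all genes. Blood genes had a mean of 9.75 in AKO replicate 2 (AKO median 7.68) and of 8.71 in HIP replicate 1 (HIP median 6.91), the highest of each group. AKO replicate 2 was the highest AKO rat and HIP replicate 1 the lowest HIP rat in most mitochondrially encoded genes. Their part was not tested. How much of these transcripts a library keeps can vary with its preparation, and no test here separates that from their level in the tissue.

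Other genes of the pathway gave no call at an adjusted p under 0.05 in limma with Benjamini-Hochberg adjustment, and their counts at p under 0.05 stand against 2.57% of all genes in HIP against WT rats, 9.34% in AKO against WT rats and 12.7% in HIP against AKO rats. Of 30 assembly factors outside the name rule, 2 were lower in HIP against WT rats (6.67%), 3 lower in AKO against WT rats (10%) and 1 higher in HIP against AKO rats (3.33%). Of 13 genes of import and carriers and 2 genes of cytochrome c and c1, 0 passed in any comparison. Of 8 antioxidant and uncoupling genes, 1 was higher in AKO against WT rats and 1 lower in HIP against AKO rats. Of 16 citrate cycle genes, 0 passed in HIP against WT rats, 1 was higher and 1 lower in AKO against WT rats, and 2 were higher in HIP against AKO rats. Of 14 regulators of mitochondrial biogenesis, 1 was lower in HIP against WT rats (7.14%), 1 lower in AKO against WT rats (7.14%), and 1 higher and 2 lower in HIP against AKO rats (21.4%). Nrf1, the factor whose motif was searched above, had a HIP against AKO estimate of −0.23 (p = 0.0246), and −0.26 (p = 0.00802) without AKO replicate 5. Ppargc1a, a coactivator of these genes, had 0.37 (95% interval −0.21 to 0.94, p = 0.199), Gabpa, a GABP subunit, 0.11 (p = 0.382), and Tfam, which packages mitochondrial DNA, 0.084 (p = 0.262). Without AKO replicate 5 these were 0.15 (p = 0.474), 0.029 (p = 0.771) and 0.11 (p = 0.109). Cycs, the mobile electron carrier, had −0.038 (p = 0.685), and Cyc1, its partner in complex III, −0.093 (p = 0.397), or −0.042 (p = 0.665) and −0.0075 (p = 0.924) without that rat. Tfam was lower in AKO against WT rats only without AKO replicate 5 (−0.15, p = 0.042; −0.12, p = 0.124 with all rats). Without that rat 9.01% of all genes had p under 0.05 in AKO against WT rats and 11.6% in HIP against AKO rats. The lists then had, in AKO against WT rats, 3 assembly factors lower (10%) and 1 citrate cycle gene higher and 2 lower (18.8%). There 2 regulators were lower (14.3%) and 1 antioxidant gene higher (12.5%). In HIP against AKO rats 2 assembly factors (6.67%), 3 citrate cycle genes (18.8%) and 1 import gene (7.69%) were higher. Of the regulators 1 was higher and 2 lower (21.4%), and 1 antioxidant gene was lower (12.5%).

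Cytosolic ribosomal protein genes were also highest in AKO replicate 5 and are given beside the members. Their median log2 fold change was −0.083 in HIP against WT rats, 0.12 in AKO against WT rats (0.058 without AKO replicate 5) and −0.21 in HIP against AKO rats (−0.15 without it). At p under 0.05, 4 were lower in HIP against WT rats (4.94%, against 2.57% of all genes). In AKO against WT rats 7 were higher and 1 lower (9.88%, against 9.34%). In HIP against AKO rats 40 of 81 were lower and 2 higher (51.9%, against 12.7% of all genes). Without AKO replicate 5, 25 were lower and 2 higher there (33.3%, against 11.6%). Estimates in HIP against AKO rats ranged from −1.57 to 2.39. There 1 gene passed an adjusted p of 0.05 (0.0097, limma, Benjamini-Hochberg) and was higher, against the list's direction. It was 0 without the 4 rats with other tissue. The members thus had 6 of 86 at p under 0.05 where ribosomal protein genes had 42 of 81; this difference between lists was not tested.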

How the data were processed

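RNA from the brains of 30 male rats (10 WT, 10 HIP, 10 AKO; tissue labelled frontal cortex) had been sequenced. The authors processed the reads against rn7 in Partek Flow 10.0.22.0228, with Bowtie2 and STAR 2.7.8a named among the tools, and deposited signal as DESeq2-normalized counts for each gene. From the steps between low values, 80.6% to 84.0% of low values in a rat lay within 0.02 reads of a whole multiple, so whole reads were not recovered, no count test was run and no other tool than limma.

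Genes with a mean of at least 1 over the rats compared were tested on log2(value + 1) with limma 3.58.1 in R 4.3.3 (moderated t with trend, two-sided), with Benjamini-Hochberg adjustment over all genes tested. Tables and ratios used Python 3.11.15, numpy 2.4.6, pandas 2.3.3 and scipy 1.17.1, and figures matplotlib 3.10.9. The fit was tested on simulated data. Ratios used 100000 permutations, or all of them where stated.

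The 3 comparisons share rats. Members and lists were chosen with earlier results of these data known. Named genes were the 5 members with the smallest p in each comparison, the 2 most abundant of each complex, ratio pairs, complex II, mitochondrially encoded genes and fixed regulators; others are ends of a range or marked, and not every gene of this rule is reported here. The ribosomal list left out the Rps6k kinases. Alternatives changed the added value, filter, scaling, weights, covariates and rats.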

Additional observations from a re-analysis of the deposited data

Results flagged for a closer look

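A rat was called apart where the distance to its closest neighbour, divided by the range of the 10 values of that group, was above the 95% critical value of Dixon's test. Of 186 groups examined, 29 had such a rat. Chance flags about 1 in 20 groups, and the genes move together within a rat, so these are not separate findings. Their causes were not tested.

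AKO replicate 5 was highest and apart in the AKO group for Ndufa3 (0.658), Ndufa4 (0.601), Ndufa13 (0.679), Sdhb (0.635), Cyc1 (0.546), Cox4i1 (0.486), Cox6a1 (0.467), Atp5mc3 (0.473) and Atp5if1 (0.59). The same held for the means of complex I (0.559), complex II (0.509), complex III (0.602), complex IV (0.634), complex V (0.584) and all members (0.583). It was lowest and apart for Mt-atp8 (0.625) and Mt-nd4l (0.568), small mitochondrially encoded subunits.

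AKO replicate 2 was highest and apart for Mt-nd1 (0.55), Mt-nd2 (0.613), Mt-nd3 (0.473), Mt-nd4 (0.532), Mt-nd6 (0.508), Mt-co3 (0.581) and Mt-cyb (0.497). HIP replicate 1 was lowest and apart for Mt-nd3 (0.618) and the mean of the mitochondrially encoded genes (0.511). HIP replicate 4, with pineal and choroid plexus transcripts, was highest for Ndufa4 (0.487) and lowest for Ppargc1a (0.487). WT replicate 3, with cerebellar transcripts, was highest for Atp5mc3 (0.487).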

How the results depend on the processing

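Of 2348 values under alternatives other than leaving out 1 rat, 2170 kept their direction and their side of the threshold, 102 reversed, 49 gained and 27 lost the call. With 1 rat left out, 2787 of 3060 values kept both, 160 reversed, 55 gained and 58 lost the call. Changing the value added before the logarithm, the filter on low values or robust moderation moved no count of members. The cause of each change was not tested, and most reversed estimates lay near 0. No paired analysis was possible because the labels give no replicate numbers shared between groups. The Cox7a2 ratio was not computed, since Cox7a2 was not analysed here. The covariates of olfactory bulb and striatum lists, and the fit without the 4 rats with other tissue and AKO replicate 5, were chosen after the data were seen. Leaving out each rat in turn was planned, but AKO replicate 5 was singled out after its values were seen. The share of all genes at p under 0.05 stands beside each count of members that is printed, and the share at an adjusted p under 0.05 beside the adjusted counts. The count was 4 in AKO against WT rats with all 30 rats in 1 fit (11.8%) or quantile normalization (9.29%). It was 2 with median-ratio rescaling (9.36%), library number (10.7%), or estimated reads without WT replicate 3 (6.15%). In HIP against AKO rats it was 9 with the olfactory bulb list (14.1%) and 8 with all 30 rats in 1 fit (12.3%). There it was 7 with library number (12.5%) and 5 with the striatum list (11.7%) as covariates. HIP against AKO rats include no WT rat, so there the fit with WT replicate 3 left out is the fit with the covariate alone and was counted only with it. The median of the members turned to 0.029 in HIP against WT rats with estimated reads as a covariate and WT replicate 3 left out. With only the AKO rats with KAH in their names, 2 members were higher and 2 lower (10.5% of all genes). Estimated reads differed between groups, so that covariate takes part of the group difference, and depth limits what can be said of low-count genes such as Cox6a2.

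In HIP against WT rats, with all 30 rats in 1 fit: 0 members at p under 0.05 (1.99% of all genes), against 2. With quantile normalization: reversed estimates were Atp5f1a −0.036 (from 0.0026). With weights for library quality: 7 members at p under 0.05 (5.18% of all genes), against 2, and reversed estimates were Cox6a2 −0.17 (from 0.33), Gabpa 0.011 (from −0.040), Ndufa10l1 −0.0028 (from 0.029) and Sdha −0.0050 (from 0.0059). With library number as a covariate: 5 members at p under 0.05 (2.99% of all genes), against 2, and reversed estimates were Atp5f1a −0.0043 (from 0.0026), Ndufs1 −0.0019 (from 0.036) and Sdha −0.0073 (from 0.0059). With estimated reads as a covariate: 5 members at p under 0.05 (24.8% of all genes), against 2, and reversed estimates were Atp5f1a −0.044 (from 0.0026), Cox4i2 0.063 (from −0.043), Cox6a1 0.055 (from −0.061), Cycs 0.041 (from −0.019), Ndufa4l2 0.036 (from −0.089) and Ndufs1 −0.0083 (from 0.036). In that fit 0 members passed an adjusted p of 0.05 (limma, Benjamini-Hochberg), against 6.32% of all genes. With estimated reads as a covariate and WT replicate 3 left out: 0 members at p under 0.05 (1.51% of all genes), against 2, and reversed estimates were Atp5mc3 0.0052 (from −0.030), Cox4i1 0.0100 (from −0.066), Cox4i2 0.23 (from −0.043), Cox6a1 0.032 (from −0.061), Cox6a2 −0.065 (from 0.33), Cyc1 0.024 (from −0.080), Cycs 0.12 (from −0.019), Ndufa4l2 0.19 (from −0.089), Ndufb6 0.076 (from −0.17), Ndufs1 −0.038 (from 0.036), Ppargc1a −0.35 (from 0.072), Sdha −0.0051 (from 0.0059), Sdhaf1 0.067 (from −0.058), Sdhd 0.031 (from −0.080), Tfam 0.025 (from −0.033) and Uqcrc1 0.027 (from −0.049). With the 4 rats with other tissue left out: 5 members at p under 0.05 (3.78% of all genes), against 2, and reversed estimates were Atp5if1 −0.0023 (from 0.052), Cycs 0.022 (from −0.019), Gabpa 0.023 (from −0.040), Ndufa10l1 −0.0032 (from 0.029) and Uqcrc2 0.00021 (from −0.0027), and reversed was the log2 ratio Cox4i2 over Cox4i1 −0.0047 (from 0.023). With the olfactory bulb list as a covariate: 4 members at p under 0.05 (3.22% of all genes), against 2. With the striatum list as a covariate: 4 members at p under 0.05 (5.82% of all genes), against 2, and reversed estimates were Cycs 0.043 (from −0.019) and Uqcrc2 0.014 (from −0.0027). With 5 added before the logarithm: reversed was the log2 ratio Ndufa4l2 over Ndufa4 0.0010 (from −0.0033).

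Leaving out 1 rat at a time in HIP against WT rats, the count of members at p under 0.05 ranged from 1 (among others without WT replicate 3, 2.63% of all genes) to 13 (without HIP replicate 4, 4.58%). Estimates that turned sign ranged as follows: Atp5f1a −0.0093 to 0.025, Atp5mc3 −0.072 to 0.0033, Cox4i2 −0.12 to 0.049, Cox6a2 −0.027 to 0.51, Cycs −0.053 to 0.033 and Gabpa −0.086 to 0.0014. Further ranges were Mt-atp8 −0.21 to 0.0047, Sdha −0.0054 to 0.018 and Uqcrc2 −0.021 to 0.011.

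In AKO against WT rats, with quantile normalization: reversed estimates were Cox6a2 −0.025 (from 0.080), Mt-co3 −0.026 (from 0.023), Ndufa10l1 −0.0018 (from 0.0095) and Sdhaf2 0.0045 (from −0.0051). With weights for library quality: 10 members at p under 0.05 (23% of all genes), against 3 and 2 at an adjusted p under 0.05 (limma, Benjamini-Hochberg, 5.02% of all genes), against 0, and reversed estimates were Cox6a2 −0.53 (from 0.080), Cyc1 −0.037 (from 0.013), Ndufa10l1 −0.017 (from 0.0095), Ndufs7 −0.026 (from 0.011) and Sdhaf1 −0.045 (from 0.015). With library number as a covariate: reversed estimates were Cox6a2 −0.069 (from 0.080), Cyc1 −0.0051 (from 0.013) and Mt-nd3 0.0042 (from −0.043). With estimated reads as a covariate: 1 members at p under 0.05 (11.5% of all genes), against 3, and reversed estimates were Cyc1 −0.011 (from 0.013), Mt-nd1 −0.0068 (from 0.031), Ndufa13 −0.012 (from 0.022), Ndufa4 −0.038 (from 0.018), Ndufs7 −0.021 (from 0.011), Sdhaf1 −0.016 (from 0.015) and Sdhaf2 0.016 (from −0.0051). With estimated reads as a covariate and WT replicate 3 left out: reversed estimates were Cox6a2 −0.21 (from 0.080), Cyc1 −0.0083 (from 0.013), Mt-co3 −0.013 (from 0.023), Ndufa10l1 −0.025 (from 0.0095), Ndufa4 −0.0086 (from 0.018), Ndufs7 −0.023 (from 0.011) and Sdhaf1 −0.034 (from 0.015). With the 4 rats with other tissue left out: reversed estimates were Atp5f1a 0.011 (from −0.012), Atp5mc3 0.0034 (from −0.029), Cox6a2 −0.38 (from 0.080) and Ndufa10l1 −0.0027 (from 0.0095). With the olfactory bulb list as a covariate: 5 members at p under 0.05 (10.1% of all genes), against 3, and reversed estimates were Atp5f1a 0.00033 (from −0.012), Mt-nd4 0.0066 (from −0.0046), Sdhaf2 0.0036 (from −0.0051) and Uqcrc1 0.017 (from −0.0075). With the striatum list as a covariate: reversed estimates were Mt-nd4 0.0022 (from −0.0046). With those 4 rats and AKO replicate 5 left out: reversed estimates were Cox4i1 −0.0070 (from 0.071), Cox6a2 −0.59 (from 0.080), Cyc1 −0.070 (from 0.013), Mt-atp8 0.072 (from −0.099), Mt-nd4 0.0010 (from −0.0046), Ndufa10l1 −0.054 (from 0.0095), Ndufa13 −0.046 (from 0.022), Ndufa4 −0.050 (from 0.018), Ndufs7 −0.029 (from 0.011) and Sdhaf1 −0.053 (from 0.015). With only the AKO rats with AKO in their names: 5 members at p under 0.05 (7.45% of all genes), against 3.

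Leaving out 1 rat at a time in AKO against WT rats, the count of members at p under 0.05 ranged from 1 (among others without WT replicate 1, 7.93% of all genes) to 8 (without AKO replicate 5, 9.01%). Estimates that turned sign ranged as follows: Atp5f1a −0.051 to 0.012, Atp5f1b −0.066 to 0.016, Atp5mc3 −0.10 to 0.019, Cox4i1 −0.015 to 0.12, Cox6a2 −0.28 to 0.25 and Cyc1 −0.073 to 0.053. Further ranges were Cycs −0.015 to 0.063, Mt-atp8 −0.18 to 0.075, Mt-co3 −0.035 to 0.058, Mt-nd1 −0.044 to 0.073, Mt-nd3 −0.14 to 0.029 and Mt-nd4 −0.083 to 0.035. Further ranges were Mt-nd6 −0.10 to 0.017, Ndufa10l1 −0.037 to 0.037, Ndufa13 −0.062 to 0.058, Ndufa4 −0.081 to 0.055, Ndufs7 −0.051 to 0.047 and Sdhaf1 −0.065 to 0.065. Further ranges were Sdhaf2 −0.041 to 0.027 and Uqcrc1 −0.075 to 0.030.

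In HIP against AKO rats, with quantile normalization: reversed estimates were Atp5f1b 0.0081 (from −0.013). With weights for library quality: 19 members at p under 0.05 (25.1% of all genes), against 6 and 3 at an adjusted p under 0.05 (limma, Benjamini-Hochberg, 6.69% of all genes), against 0, and reversed estimates were Atp5f1b 0.031 (from −0.013), Atp5mc3 0.011 (from −0.0011), Ndufv1 0.0097 (from −0.0062) and Uqcrc1 0.0060 (from −0.041). With estimated reads as a covariate: reversed estimates were Atp5f1a −0.0033 (from 0.014) and Cox4i2 −0.0096 (from 0.040). With the 4 rats with other tissue left out: reversed estimates were Cox4i2 −0.030 (from 0.040), Cycs 0.021 (from −0.038), Ndufa10l1 −0.00057 (from 0.019) and Ndufa4l2 −0.033 (from 0.083). With the olfactory bulb list as a covariate: reversed estimates were Atp5f1a −0.0027 (from 0.014) and Ndufa10l1 −0.00067 (from 0.019). With the striatum list as a covariate: reversed estimates were Mt-atp8 0.074 (from −0.051). With those 4 rats and AKO replicate 5 left out: reversed estimates were Atp5f1b 0.043 (from −0.013), Atp5mc3 0.052 (from −0.0011), Cyc1 0.0019 (from −0.093), Cycs 0.019 (from −0.038), Ndufv1 0.057 (from −0.0062) and Uqcrc1 0.0100 (from −0.041).

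Leaving out 1 rat at a time in HIP against AKO rats, the count of members at p under 0.05 ranged from 4 (among others without HIP replicate 2, 9.69% of all genes) to 11 (without AKO replicate 3, 14.5%). Estimates that turned sign ranged as follows: Atp5f1a −0.0097 to 0.053, Atp5f1b −0.047 to 0.035, Atp5mc3 −0.050 to 0.071, Cox4i2 −0.018 to 0.14, Cycs −0.076 to 0.015 and Mt-atp8 −0.23 to 0.10. Further ranges were Mt-nd4l −0.34 to 0.033, Mt-nd5 −0.15 to 0.018, Mt-nd6 −0.087 to 0.033, Ndufa10l1 −0.0082 to 0.066, Ndufa4l2 −0.012 to 0.15 and Ndufa5 −0.017 to 0.029. Further ranges were Ndufv1 −0.051 to 0.059, Sdhaf1 −0.12 to 0.0072, Sdhc −0.096 to 0.0036 and Uqcrc1 −0.079 to 0.026.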
